A study of Homo sapiens with 6 samples.

Results

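This report follows 43 genes of WNT signalling in BT-549 cells, a human triple negative breast cancer line, after 24 h in adipocyte conditioned medium (ACM) or unconditioned medium (UCM). The genes were chosen by name, with earlier results of these data known, as WNT ligands, their receptors and antagonists and the beta-catenin branch downstream. All 43 were found among the 63140 genes of each table. There were 3 ACM cultures and 3 UCM cultures of cells labelled wild type. ACM was the supernatant of mouse OP9 stromal cells turning into adipocytes in a medium with insulin, oleate and albumin; the labels give it at 50%, whereas the study's methods give it undiluted for RNA-seq. The formula of UCM is not given in the sources used here, so secreted factors and differences in base medium, oleate or insulin cannot be told apart. The replicates were wells, and nothing says that they came from separate passages, so the p-values measure only the spread between these wells.

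The libraries held 17135288 to 21053257 expected counts in total, and 14451 genes passed the filter on low counts. The labels call the cells epithelial, but all 6 epithelial markers examined (EPCAM, CDH1, KRT8, KRT18, KRT19, ESRP1) were below 1 TPM in every culture, while the 6 mesenchymal markers were above it throughout, VIM at 2533.11 to 3151.28 TPM. ESR1 and PGR had 0 counts in all cultures, and ERBB2 was at 25.45 to 32.43 TPM. Of 6 adipocyte markers, ADIPOQ and LEP had 0 counts, FABP4, PLIN1 and LPL had at most 2, and the list summed to 3.77 to 6.41 TPM in ACM and 3.23 to 3.93 TPM in UCM, nearly all of it CFD. Of 4 leukocyte markers, CD3E was at 0, PTPRC had 3 to 6 counts and CD14 3 to 13. The summed leukocyte list was 12.84 to 30.99 TPM in ACM and 6.10 to 8.36 TPM in UCM, which was almost entirely CD68, a lysosomal protein that was 3.40-fold higher in ACM (adjusted p = 0.0335). The CD68 call was lost with the replicate block (adjusted p = 0.0763) and without UCM replicate 1, 2 or 3 (adjusted p = 0.0772, 0.1602 and 0.1523). The part of CD68 in the results below was not tested.

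WNT ligands are secreted lipid-modified glycoproteins. PORCN attaches the lipid, and WLS carries the ligand to the cell surface. At the receiving cell a ligand binds a frizzled receptor. Together with LRP5 or LRP6 this stops a destruction complex of AXIN, APC and GSK3B from degrading beta-catenin (CTNNB1), which then acts in the nucleus with TCF/LEF factors. Other ligands, WNT5A and WNT5B among them, mostly work without beta-catenin, through ROR or RYK co-receptors, and direct cell movement and polarity. Both branches are studied in breast cancer for their part in growth and invasion.

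Of the 37 members that could be tested, 3 were higher in ACM (FZD8, WNT5A and SFRP1) and 2 were lower (WNT5B and TCF7) by edgeR's quasi-likelihood test at an adjusted p at or below 0.05. The 5 called members are 13.5% of those tested. Over all tested genes 5.56% were called, with 3.35% higher and 2.21% lower. At an unadjusted p at or below 0.05 there were 11 members (29.7%), 8 higher and 3 lower, against 23.3% of all genes. In 14 members (37.8%) the 3 ACM values lay wholly on one side of the 3 UCM values, 8 above and 6 below, against 29.0% of all genes. The median log2 fold change (log2 FC, ACM against UCM) was 0.02 over the tested members and -0.01 over all tested genes, and the median size of change was 0.14 and 0.16. The middle of the list thus lay at that of all genes. The members were chosen with earlier results of these data known, so the shares called do not test the list. With effective length offsets only FZD8 and WNT5A stayed called (WNT5B, SFRP1 and TCF7 had adjusted p = 0.0656, 0.0737 and 0.0824), and with limma on log2 TPM only FZD8. In bulk RNA, a shift in the make-up of the culture and a shift in RNA per cell cannot be told apart.

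**Figure D1:**
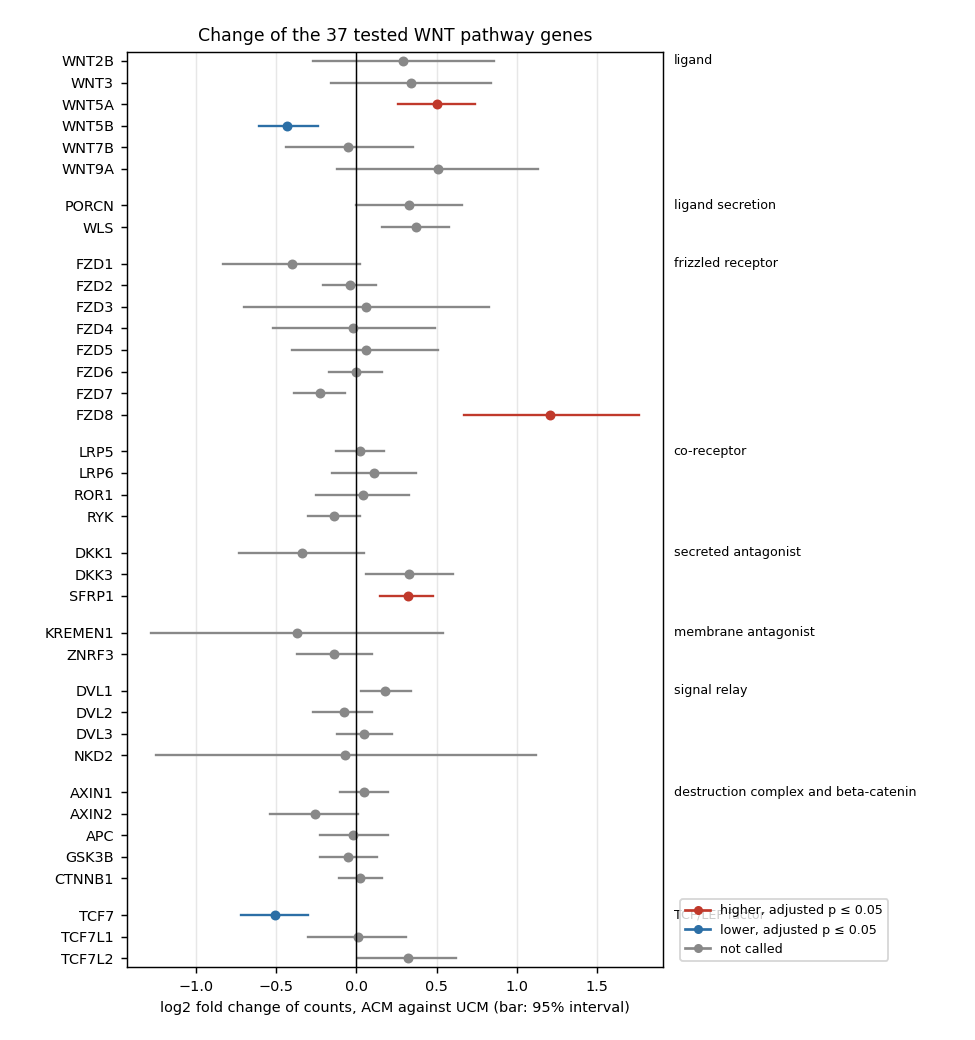
log2 fold change of counts in ACM against UCM (x axis) for the 37 tested members, grouped by role, with 95% intervals from the edgeR fit on 3 cultures per group. Red points (FZD8, WNT5A, SFRP1) were called higher and blue points (WNT5B, TCF7) lower; the other 32 are grey, and most lie close to 0.

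FZD8, WNT5A, WNT5B and TCF7 lie on GRCh38 at chromosome 10, 35638247 to 35642296 (FZD8, minus strand), chromosome 3, 55465715 to 55490539 (WNT5A, minus strand), chromosome 12, 1529891 to 1647212 (WNT5B, plus strand) and chromosome 5, 134114681 to 134151865 (TCF7, plus strand), as protein-coding genes of GENCODE 44. The called member SFRP1 was not part of this search, so the windows below do not cover it. RefSeq lists 7 promoter starts for the 4 genes searched on GRCh38.p14. The 250 bases before each start were searched on both strands for the TCF core CTTTGA, the SP1 box GGGCGG, the NF-kB pattern (GGGA and CC with any 4 bases between), the ATF4 composite site TGATGCAA and the AP-1 pattern TGANTCA. These motifs were chosen after the calls were known. They occur in 11.2%, 42.5%, 22.6%, 0.776% and 6.59% of the 34943 RefSeq windows of the same length. The 4 windows that hold no annotated exon are shown because they can be read without coding or untranslated sequence, 5′ to 3′ on the gene's strand, with matched letters in capitals.
FZD8, chr10:35642297-35642546, minus strand: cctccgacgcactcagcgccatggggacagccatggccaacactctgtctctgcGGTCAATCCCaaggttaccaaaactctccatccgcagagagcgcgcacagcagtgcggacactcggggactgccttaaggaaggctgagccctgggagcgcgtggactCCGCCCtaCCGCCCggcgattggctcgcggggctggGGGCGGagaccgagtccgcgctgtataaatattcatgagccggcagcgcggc
WNT5A, chr3:55481399-55481648, minus strand: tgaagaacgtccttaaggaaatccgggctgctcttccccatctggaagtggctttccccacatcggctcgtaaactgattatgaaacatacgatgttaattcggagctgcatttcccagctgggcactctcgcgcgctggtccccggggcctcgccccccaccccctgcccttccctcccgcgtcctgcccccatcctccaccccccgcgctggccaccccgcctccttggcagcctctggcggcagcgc
WNT5B, chr12:1628981-1629230, plus strand: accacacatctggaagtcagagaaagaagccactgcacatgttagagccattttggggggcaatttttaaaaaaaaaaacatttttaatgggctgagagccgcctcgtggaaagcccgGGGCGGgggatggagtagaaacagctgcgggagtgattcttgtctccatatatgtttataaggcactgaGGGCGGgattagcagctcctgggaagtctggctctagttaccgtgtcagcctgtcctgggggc
TCF7, chr5:134123368-134123617, plus strand: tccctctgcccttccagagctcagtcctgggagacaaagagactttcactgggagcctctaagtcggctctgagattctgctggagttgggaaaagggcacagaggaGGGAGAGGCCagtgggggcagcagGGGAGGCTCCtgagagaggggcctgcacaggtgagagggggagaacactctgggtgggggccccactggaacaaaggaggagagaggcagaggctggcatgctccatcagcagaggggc

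The FZD8 window held 3 SP1 boxes and 1 NF-kB pattern, the WNT5B window 2 SP1 boxes, and the TCF7 window 2 NF-kB patterns. The WNT5A window shown held none of the motifs. Of the windows not shown, the WNT5A window held 1 SP1 box, and the TCF7 window 1 SP1 box and 1 NF-kB pattern. The WNT5B window not shown held none. No matches overlapped. The letters CTTTGA, TGATGCAA and TGANTCA were in none of the 7 windows, which says only that they are not in these stretches. The counts are per gene and do not say which start was used.

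Among the ligands, the 2 closest relatives moved in opposite directions: WNT5A rose 1.41-fold and WNT5B was 1.34-fold lower in ACM. WNT5A stood at 49.2, 53.7 and 40.0 CPM (counts scaled to the size of the library) in ACM replicates 1, 2 and 3, and at 34.8, 32.4 and 33.9 CPM in UCM. Every ACM culture was above every UCM culture, and the spread was wider in ACM. The log2 FC was 0.50 (SE 0.11, adjusted p = 0.0290). WNT5B read 132, 112 and 140 CPM in ACM and 169, 174 and 175 CPM in UCM. The UCM cultures lay close together, and ACM replicate 2 was lowest in WNT5B and highest in WNT5A. For WNT5B the log2 FC was -0.43 (SE 0.08, adjusted p = 0.0186). The WNT5A call was lost without ACM replicate 1, ACM replicate 2, UCM replicate 2 or UCM replicate 3 (adjusted p = 0.0665, 0.1102, 0.1235 and 0.0849), and the WNT5B call without UCM replicate 2 or 3 (adjusted p = 0.0820 and 0.0923). Both kept their direction throughout.

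On the per-length scale (TPM), WNT5B was the most abundant ligand, at 101.50 to 140.72 TPM in ACM and 166.00 to 171.91 TPM in UCM. WNT5A followed at 19.11 to 22.39 and 13.01 to 15.75 TPM. WNT5B made up 82.7%, 76.1% and 82.6% of the summed TPM of the 7 ligands in ACM and 88.1%, 87.9% and 88.7% in UCM. WNT5A made up 12.1%, 16.8% and 11.7% against 8.2%, 7.22% and 6.71%. The ratio of WNT5B to WNT5A was thus 4.53 to 7.09 in ACM and 10.74 to 13.21 in UCM. The ligand mRNA pool remained mostly WNT5B in both media. The summed ligand TPM was 133.4 to 170.4 in ACM and 188.8 to 193.9 in UCM.

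The other ligands were scarce. WNT2B, WNT3 and WNT7B lay between 1.76 and 4.49 TPM, with ranges in UCM that overlapped for WNT2B and WNT7B and for WNT7B and WNT3. WNT9A was at 0.78 to 1.63 TPM. None was called: log2 FC was 0.29 for WNT2B, 0.34 for WNT3, -0.05 for WNT7B and 0.51 for WNT9A, with SE 0.25, 0.23, 0.18 and 0.28. The 95% interval of WNT9A ran from -0.12 to 1.13 on 35 to 78 counts, which holds both 0 and the change of WNT5A. WNT2, a ligand of stromal and lung tissue, had 0 counts in every library, which allows up to 0.142 to 0.175 CPM at 3 counts per library. These limits cover counting error only. WNT2B shares exon sequence with ST7L on the other strand, and the strand setting of the counting is not given in the sources used here. Its expected counts were whole in only 1 of 6 libraries, within 0.005.

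**Figure D2:**
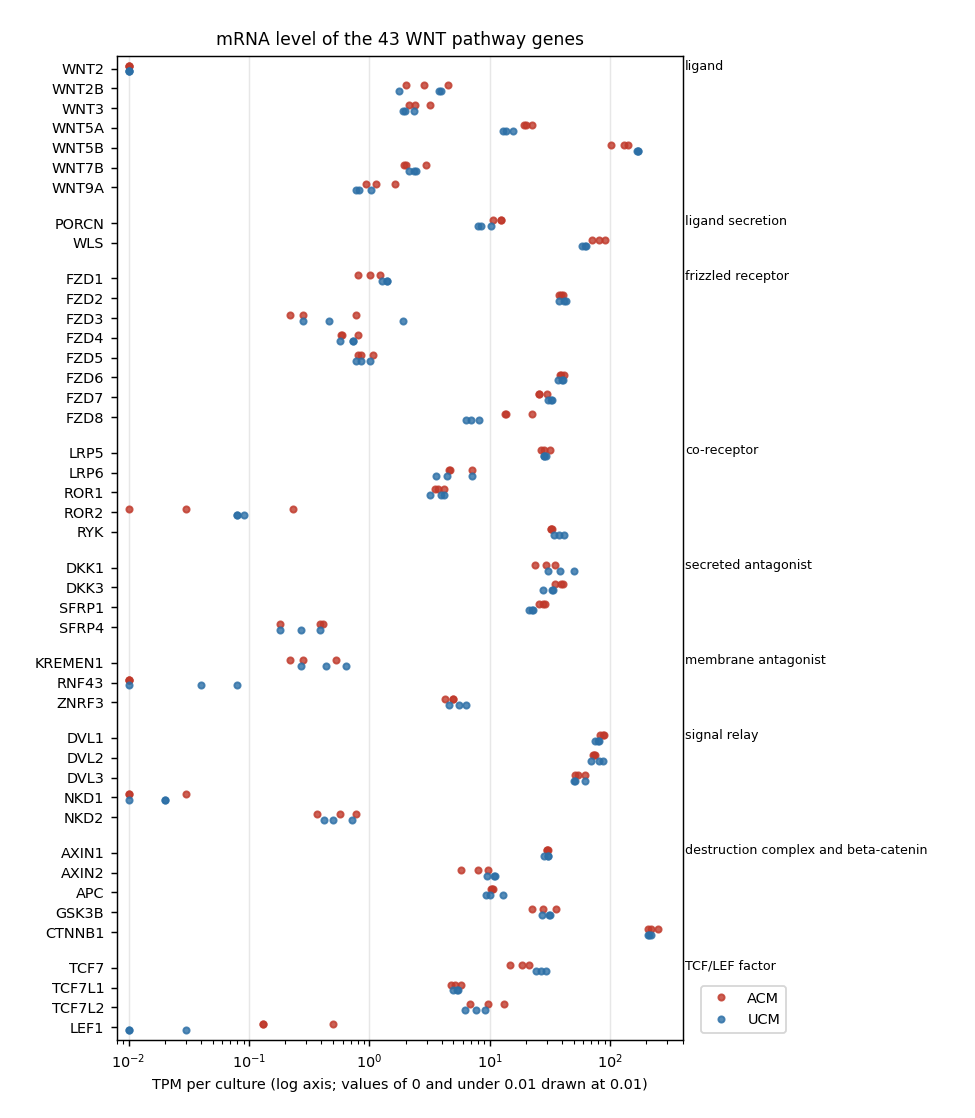
TPM per culture (x axis, log scale) for all 43 members by role, with ACM in red and UCM in blue and values of 0 drawn at 0.01. CTNNB1 and WNT5B are the most abundant, WNT2 is at 0 throughout, and the red and blue points separate for the 5 called members and also for WLS, PORCN, FZD1, FZD7, RYK, DKK3, DVL1 and LEF1, which were not called or, for LEF1, not tested.

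Both genes of ligand maturation had higher values in ACM without passing the test. WLS, the carrier of finished ligand, was at 84.2, 108 and 95.8 CPM in ACM and at 69.1, 78.8 and 75.2 CPM in UCM. All ACM values were above all UCM values, the log2 FC was 0.37 (SE 0.10), and the adjusted p of 0.0520 was just outside the threshold. It passed in 7 of 15 alternatives, over which its adjusted p ranged from 0.0005 to 0.1980. PORCN, the acyltransferase, read 12.1, 11.3 and 10.6 CPM against 7.77, 8.92 and 10.4 CPM. The groups again did not overlap, but ACM replicate 3 and UCM replicate 3 nearly met, and the log2 FC of 0.33 (SE 0.15) had an adjusted p of 0.2090. In TPM, WLS was at 58.86 to 90.49 and PORCN at 7.96 to 12.52.

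FZD8 showed the largest fold change of the 37 tested members, 2.32-fold higher in ACM. This receptor is encoded by a gene with its whole coding sequence in a single exon. Its 3 ACM cultures held 36.5, 60.7 and 34.7 CPM (768, 1077 and 638 counts), and its UCM cultures 21.3, 18.8 and 16.6 CPM (449, 349 and 285 counts). ACM replicate 2 stood well above the other ACM cultures, yet the lowest ACM value was still above the highest UCM value. The log2 FC was 1.21 (SE 0.23, 95% interval 0.67 to 1.76, adjusted p = 0.0328). Without ACM replicate 2 it was 0.91 (adjusted p = 0.0089). The call was lost without UCM replicate 1, 2 or 3 (adjusted p = 0.0686, 0.1496 and 0.1255) and without replicate 1 of both groups (adjusted p = 0.0938), at log2 FC of 1.14 to 1.44. Among the 5 called members, FZD8 alone was also called in both limma fits of log2 TPM. Its expected counts were whole in 1 of 6 libraries, so some reads were shared with other genes; an unnamed antisense gene that overlaps it had 0 to 7 counts.

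Most frizzled mRNA came from other receptors. FZD2 (37.59 to 43.35 TPM) and FZD6 (37.09 to 41.70 TPM) overlapped in level, and FZD7 followed at 25.50 to 33.19 TPM. FZD8 came next, at 13.28 to 22.28 TPM in ACM and 6.31 to 8.19 TPM in UCM. It made up 11.4%, 17.2% and 10.5% of the summed frizzled TPM in ACM against 6.69%, 5.8% and 5.04% in UCM. The sum itself was 120.1 to 129.8 TPM in ACM and 120.9 to 125.3 TPM in UCM, so that the ranges overlapped.

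FZD7, a frizzled studied in triple negative breast cancer, was at 77.6, 80.0 and 88.5 CPM in ACM and at 98.5, 93.0 and 96.6 CPM in UCM. All ACM values were below all UCM values, with a log2 FC of -0.23 (SE 0.07), but the adjusted p was 0.0978, and no alternative called it. The ratio of FZD7 to FZD8 in TPM was 1.15 to 2.23 in ACM and 4.05 to 5.09 in UCM. FZD1 was also lower in every ACM culture, at 5.7, 3.83 and 4.67 CPM against 6.4, 6.56 and 5.89 CPM (log2 FC -0.40, SE 0.19, adjusted p = 0.2383). FZD2 and FZD6 had log2 FC of -0.04 and 0.00, with 95% intervals of -0.21 to 0.12 and -0.17 to 0.16. FZD3, FZD4 and FZD5 were below 2 TPM in every culture, with log2 FC of 0.06, -0.02 and 0.06 and SE of 0.34, 0.23 and 0.21. The FZD3 level rested on 17 to 24 counts, and its effective length, the length over which RSEM spreads the reads of a gene, varied 6.40-fold between libraries, which moves its TPM without a change in counts. FZD4 lies across from PRSS23, which had 1803 to 2805 counts. None of the FZD4 counts were whole, so some of its reads were shared with other genes. Whether PRSS23 was among them was not tested.

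**Figure D3:**
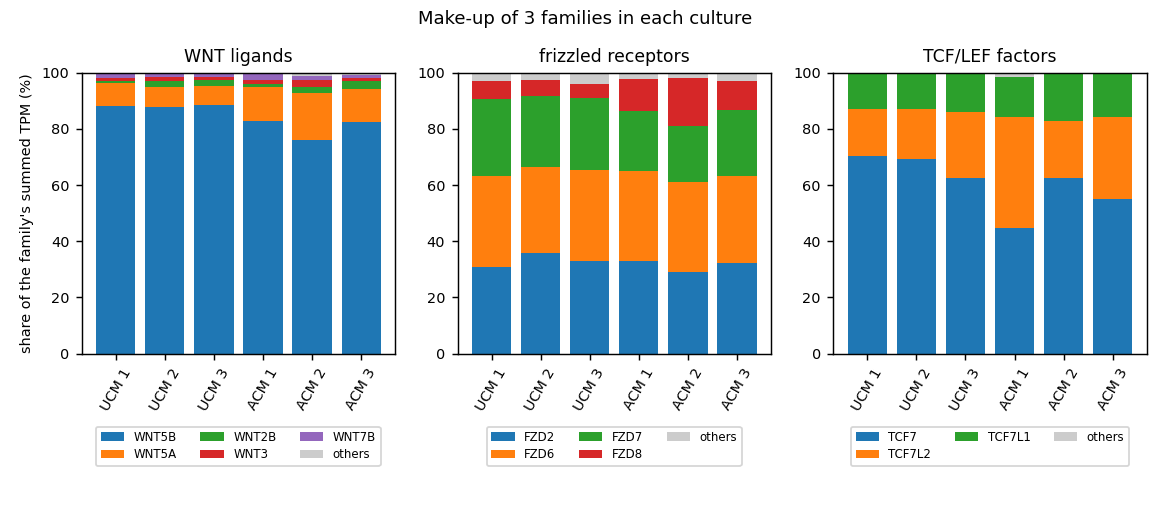
Share of the summed TPM (y axis, percent) held by each ligand, frizzled receptor and TCF/LEF factor in each of the 6 cultures; members under 1.6% in every culture are grouped as others. The WNT5A and FZD8 segments are thicker, and the WNT5B and TCF7 segments thinner, in each ACM culture than in each UCM culture. For TCF7 the shares nearly meet, at 62.4% in ACM replicate 2 and 62.6% in UCM replicate 3.

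Co-receptor mRNAs differed little between media. LRP5, at 26.77 to 31.99 TPM, had a log2 FC of 0.02 (95% interval -0.13 to 0.17), and LRP6, at 3.55 to 7.09 TPM, of 0.11 (95% interval -0.15 to 0.37). The effective length of LRP6 varied 1.94-fold between libraries, which moves its TPM without a change in counts. ROR1, a receptor for WNT5A, had a log2 FC of 0.04 (95% interval -0.25 to 0.33), whereas its relative ROR2 had 0 to 11 counts and was not tested. RYK, an atypical kinase receptor for WNT5A, was at 60.5, 62.0 and 59.8 CPM in ACM and 65.4, 64.6 and 70.9 CPM in UCM. The groups did not overlap, but the difference was small (log2 FC -0.14, SE 0.07, adjusted p = 0.2747). Among the members, RYK was the most abundant of the WNT5A co-receptors, at 32.40 to 41.13 TPM against 3.20 to 4.19 TPM for ROR1. PTK7, looked up with the planar polarity genes below, is outside this ranking and stood higher, at 93.82 to 111.01 TPM. Its CPM was higher in every ACM culture, but it was not called (log2 FC 0.16, SE 0.06, adjusted p = 0.1597).

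SFRP1, a secreted frizzled-like protein that binds WNT ligands, was 1.25-fold higher in ACM. It read 76.5, 83.1 and 82.8 CPM in ACM and 60.9, 67.8 and 65.7 CPM in UCM. Each ACM culture lay above each UCM culture, and the spread was similar in both groups. The log2 FC was 0.32 (SE 0.07, adjusted p = 0.0354). The call was lost without ACM replicate 2 or 3 or UCM replicate 2 or 3 (adjusted p = 0.1338, 0.0905, 0.1065 and 0.1159), with log2 FC of 0.28 to 0.37 over the alternatives.

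The other secreted antagonists were not called. DKK3, a dickkopf relative whose role in WNT signalling is debated, was at 50.9, 58.1 and 62.1 CPM in ACM and 37.2, 49.2 and 49.9 CPM in UCM (log2 FC 0.33, SE 0.12, adjusted p = 0.1448). Its ACM values were all higher, ACM replicate 1 only narrowly so. None of its counts were whole and it overlaps USP47 on the other strand, which had 1074 to 1382 counts. DKK1, which blocks LRP5 and LRP6, pointed the other way, at 21.5, 29.1 and 29.6 CPM against 27.0, 40.5 and 34.1 CPM. Here the groups overlapped, and the log2 FC was -0.34 (SE 0.17, adjusted p = 0.2761). DKK1, DKK3 and SFRP1 were of like abundance, between 21.13 and 50.08 TPM, and SFRP4 was at 4 to 13 counts and not tested. SFRP2, looked up with the further pathway genes below, was more abundant than these. It was at 86.68 to 123.02 TPM in ACM and 85.75 to 94.93 TPM in UCM. The groups overlapped, and SFRP2 was not called (log2 FC 0.19, SE 0.14, adjusted p = 0.4684). Of the antagonists at the membrane, KREMEN1, a receptor for DKK1, had 13 to 28 counts (log2 FC -0.37, SE 0.41). ZNRF3, a ubiquitin ligase that removes frizzled receptors, was at 4.23 to 6.33 TPM (log2 FC -0.14, SE 0.11), and its partner RNF43 had 0 counts in ACM and 0 to 2 in UCM.

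**Figure D4:**
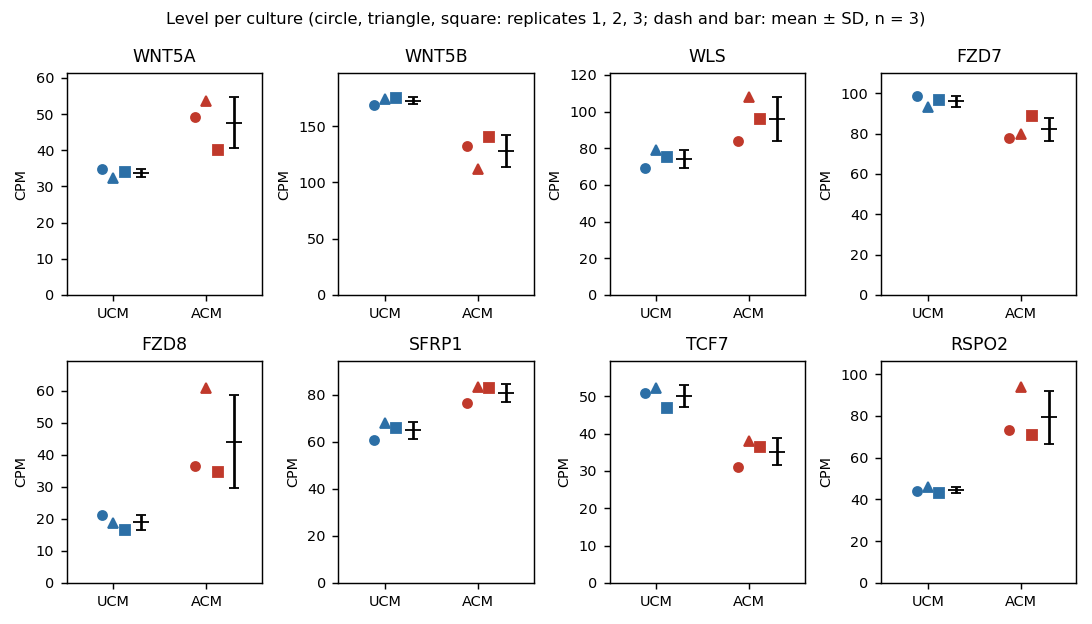
CPM (y axis) in each of the 3 UCM and 3 ACM cultures for the 5 called members, for WLS and FZD7, which did not pass, and for RSPO2; symbols mark replicates 1 to 3, and the dash and bar give mean ± SD. In all 8 genes the ACM and UCM cultures do not overlap, and among the ACM cultures replicate 2 is highest in each gene except WNT5B and FZD7.

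The cytoplasmic relay was abundant and mostly level. DVL1, DVL2 and DVL3, the Dishevelled adaptors that frizzled receptors recruit, were at 49.84 to 89.58 TPM. DVL1 was at 145, 130 and 140 CPM in ACM and 117, 123 and 126 CPM in UCM, a difference of 0.18 on the log2 scale (SE 0.07, adjusted p = 0.1510). For DVL2 and DVL3 the groups overlapped, with log2 FC of -0.08 and 0.05. The Dishevelled inhibitors were near the floor, NKD1 with 0 to 7 counts and not tested, NKD2 with 5 to 19 counts and a log2 FC of -0.07 (SE 0.54).

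The destruction complex and beta-catenin had no called member. CTNNB1 was the most abundant of the 43 members, at 335, 344 and 343 CPM in ACM and 334, 341 and 329 CPM in UCM. The groups overlapped, and the 95% interval of its log2 FC was -0.11 to 0.16. AXIN1, APC and GSK3B had log2 FC of 0.05, -0.02 and -0.05, with intervals from -0.10 to 0.20, -0.23 to 0.20 and -0.23 to 0.13. These are mRNA levels, and the pathway acts on beta-catenin protein, which was not measured. AXIN2, a scaffold of the complex and itself a widely used target gene of beta-catenin, was at 16.5, 12.7 and 14.0 CPM in ACM and 16.7, 18.3 and 16.9 CPM in UCM. The ACM values were all lower in CPM, replicate 1 by little, but overlapped UCM in TPM, and the log2 FC of -0.26 (SE 0.12) had an adjusted p of 0.2395.

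TCF7, a nuclear partner of beta-catenin also known as TCF1, was 1.42-fold lower in ACM. It read 31.2, 38.0 and 36.5 CPM in ACM and 51.0, 52.4 and 46.8 CPM in UCM. The highest ACM value was clearly below the lowest UCM value. The log2 FC was -0.51 (SE 0.09, adjusted p = 0.0152). Leaving out UCM replicate 2 ended the call (adjusted p = 0.0802), and it remained without each of the other 5 libraries. TCF7 overlaps SKP1 on the other strand, which had 1899 to 2482 counts, although all TCF7 counts were whole.

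TCF7L2, a TCF best known from gut and islet cells, had higher CPM in every ACM culture, at 14.9, 13.2 and 15.3 CPM against 9.95, 11.9 and 13.1 CPM. The gap between ACM replicate 2 and UCM replicate 3 was slight, the TPM ranges overlapped, and the log2 FC of 0.32 (SE 0.14) had an adjusted p of 0.1930. TCF7L1 was level (log2 FC 0.01, 95% interval -0.30 to 0.31), and LEF1 had 0 to 3 counts. TCF7 was the most abundant of the family. It made up 44.7%, 62.4% and 55.2% of the summed TPM in ACM and 70.5%, 69.3% and 62.6% in UCM. The sum was 33.1 to 33.8 TPM in ACM and 38.1 to 42.7 TPM in UCM. The effective length of TCF7L2 was 1615 in ACM replicate 1 and 2042 to 2665 in the other cultures, which moves these shares without a change in counts.

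A further 72 genes of the pathway were looked up by role: other ligands and receptors, R-spondins, extracellular regulators, planar polarity proteins, relay proteins and nuclear cofactors. Of these 45 were tested, 5 were higher in ACM (11.1%, against 3.35% of all genes) and 0 lower (against 2.21%) at an adjusted p at or below 0.05, with a median log2 FC of 0.08. At an unadjusted p at or below 0.05 edgeR gave 10 higher and 2 lower, together 26.7% against 23.3% of all genes. Over the alternatives the adjusted count of lower genes was at most 1. These genes were also chosen with earlier results of these data known, so their shares do not test the list. RSPO2, a secreted R-spondin that prolongs frizzled receptors at the membrane, was 1.78-fold higher. Its values were 73.2, 94.0 and 70.7 CPM in ACM and 44.2, 46.0 and 43.1 CPM in UCM. The UCM cultures were nearly equal, and the lowest ACM value was far above them. The log2 FC was 0.83 (SE 0.11, adjusted p = 0.0038), and RSPO2 was called in all 15 alternatives, with adjusted p up to 0.0460. RSPO3 had a log2 FC of -0.23 and LGR4, an R-spondin receptor, of -0.04, and neither was called.

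In the planar polarity group, 2 of 9 tested genes rose (22.2%, against 3.35% of all genes): CELSR1, an adhesion cadherin, by 0.61 on the log2 scale (SE 0.15, adjusted p = 0.0392), and PRICKLE2, a cytoplasmic polarity protein, by 0.41 (SE 0.08, adjusted p = 0.0210). CELSR1 read 15.3, 16.4 and 14.0 CPM in ACM and 11.8, 9.3 and 8.63 CPM in UCM. Its effective length varied 2.10-fold between libraries. With effective length offsets RSPO2 was the only further pathway gene called. PRICKLE2 read 59.3, 69.7 and 60.6 CPM against 47.0, 47.6 and 48.2 CPM. Neither gene overlapped between media. CSNK1E, a casein kinase of the relay, rose by 0.25 (SE 0.06, adjusted p = 0.0457). TLE2, a corepressor that TCF factors recruit, rose by 0.43 (SE 0.11, adjusted p = 0.0441) but overlapped in TPM. The next genes by p were APC2 (log2 FC 0.60, adjusted p = 0.0625), CTNNBIP1, an inhibitor of beta-catenin binding (0.27, adjusted p = 0.0703), AMER1 (-0.40, adjusted p = 0.0745), TPBG (0.41, adjusted p = 0.1207) and TLE3 (0.28, adjusted p = 0.1211). CELSR1, CSNK1E and TLE2 each lost the call without any 1 of ACM replicates 1, 2 and 3 or UCM replicates 2 and 3 (adjusted p = 0.0710 to 0.1632, 0.0714 to 0.1872 and 0.0847 to 0.1931), and PRICKLE2 without ACM replicate 2 or UCM replicate 2 or 3 (adjusted p = 0.0741 to 0.0986).

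Of 18 textbook TCF target genes outside the pathway, 14 were tested, with a median log2 FC of 0.24, and 3 were called (21.4%, against 5.56% of all genes). Many other signals act on these genes. JUN and MYC, 2 growth-linked transcription factors, rose, and TNFRSF19, a receptor of the TNF receptor family, fell. JUN was at 335, 379 and 328 CPM in ACM and 269, 253 and 270 CPM in UCM (log2 FC 0.39, SE 0.07, adjusted p = 0.0155). MYC was at 179, 183 and 196 CPM against 150, 142 and 160 CPM (log2 FC 0.30, SE 0.07, adjusted p = 0.0371). TNFRSF19 was at 28.5, 27.5 and 27.8 CPM against 37.9, 45.2 and 49.0 CPM (log2 FC -0.65, SE 0.10, adjusted p = 0.0075). In all 3 genes the media did not overlap. CCND1, a cell cycle cyclin (log2 FC 0.48, adjusted p = 0.0577), VEGFA, an angiogenic factor (0.80, adjusted p = 0.0604), PPARD (0.27, adjusted p = 0.0865), FOSL1 (0.80, adjusted p = 0.1022) and PLAUR (0.72, adjusted p = 0.1022) came next without passing. At an unadjusted p at or below 0.05 there were 8 higher and 3 lower targets, 78.6% of those tested against 23.3% of all genes. The targets were picked with earlier results of these data known, so their shares do not test the list. TNFRSF19 stayed called without each library in turn. JUN lost the call without ACM replicate 2 or UCM replicate 2 or 3 (adjusted p = 0.0536, 0.0972 and 0.0562), and MYC without ACM replicate 2 or 3 or UCM replicate 2 or 3 (adjusted p = 0.1044, 0.1045, 0.1882 and 0.0778).

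**Figure D5:**
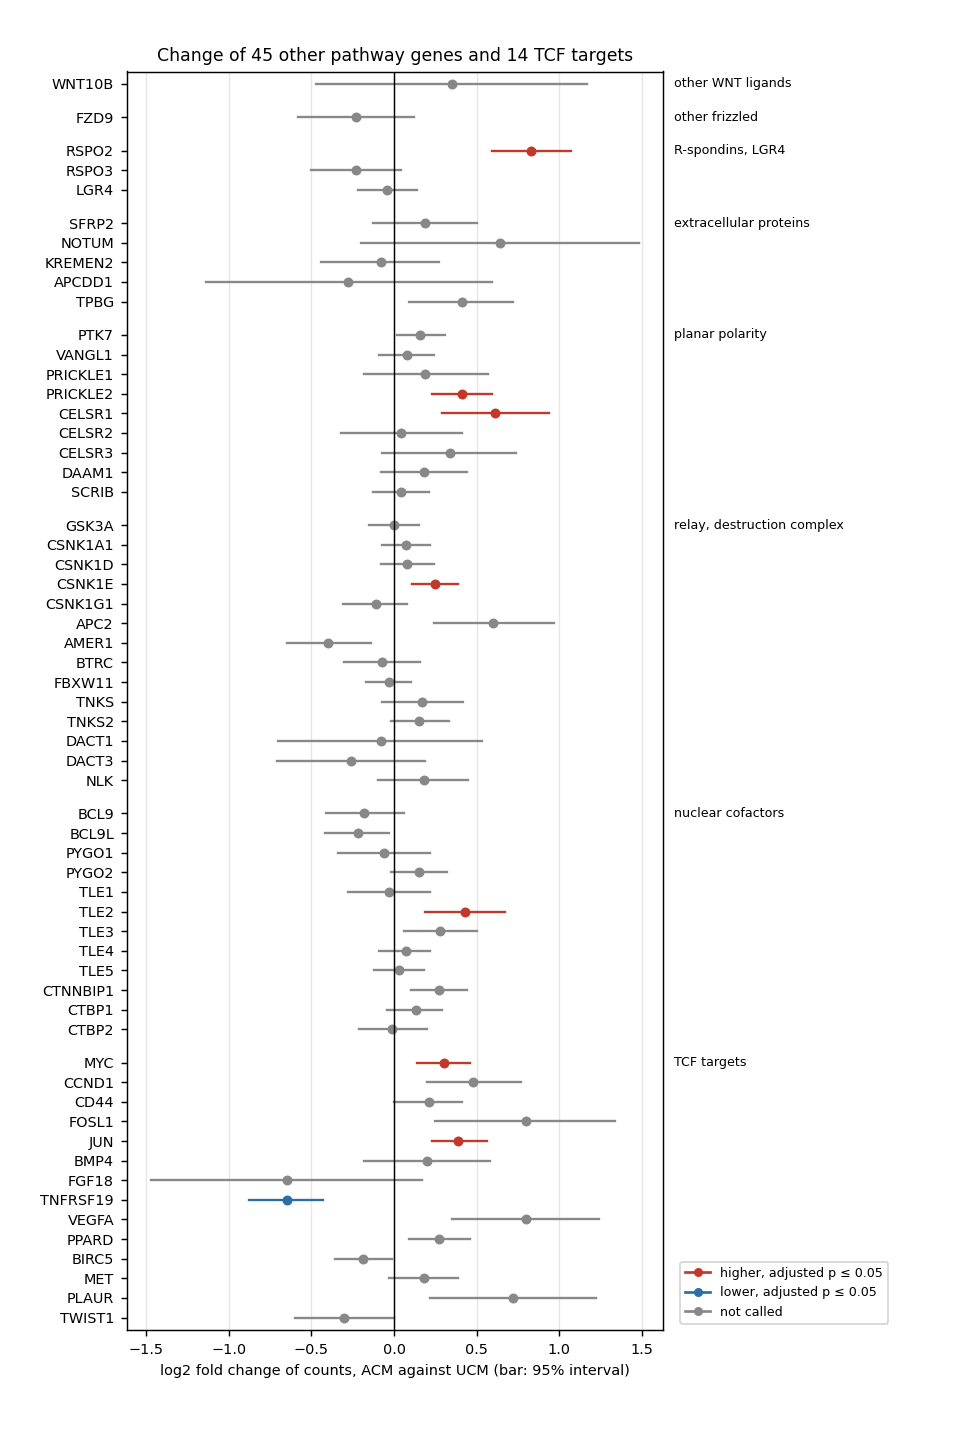
log2 fold change of counts in ACM against UCM (x axis) with 95% intervals for the 45 tested genes of the further pathway list and the 14 tested TCF targets, grouped by role. RSPO2, PRICKLE2, CELSR1, CSNK1E, TLE2, MYC and JUN (red) were called higher and TNFRSF19 (blue) lower.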

How the data were processed

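RNA from 3 ACM and 3 UCM cultures of BT-549 was sequenced as polyA-selected paired-end libraries. The authors trimmed reads with Trim Galore, aligned them to GRCh38 (hg38) with STAR and counted genes with RSEM; versions and annotation are not given in the sources used here. The deposited tables hold expected counts per gene, estimated by the authors and not normalized, and TPM, which the authors' RSEM scales by effective length. A deposited table of the authors' own DESeq2 comparison (fold changes, p-values) was not used.

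Expected counts were rounded and tested with edgeR 4.0.16 in R 4.3.3 (TMM, filterByExpr, robust quasi-likelihood test, condition only, Benjamini-Hochberg over 14451 genes, threshold 0.05). The study used DESeq2; DESeq2 1.42.0 and limma 3.58.1 on log2 TPM with pseudocounts of 1 and 0.1 were alternatives. CPM used TMM library sizes. Depth was 17135288 to 21053257 counts. On simulated data for this comparison, 42 of 100 genes changed by 0.5 (log2) and 77 of 98 changed by 1 were recovered among 14235 genes. In that run 14 unchanged genes were also called, and 0 genes were called in a run without changes. Members and lists were chosen with earlier results of these data known. All 43 members are accounted for by role: called members are given with full statistics, and values are given where the unadjusted p was at or below 0.05 or the groups did not overlap. From the other lists, called genes and up to 5 more with the smallest p are named. RSPO3, LGR4, SFRP2 and PTK7 are also named, for comparison.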

Additional observations from a re-analysis of the deposited data

How the results depend on the processing

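The 5 called members kept their direction under all 15 alternatives, but their calls did not all hold. The number of members called higher and lower, 3 and 2, became 5 and 3 with genes of at least 1 count in total tested and with the replicate block, 2 and 0 with effective length offsets, and 1 and 0 with limma on log2 TPM plus 1 or 0.1. Leaving out 1 library gave 0 to 3 higher and 0 to 2 lower, with none called without UCM replicate 2, where 125 genes were called higher and 70 lower in all. Over all genes the counts of 484 higher and 320 lower became 764 and 447 with DESeq2. They became 272 and 134 with effective length offsets, and 1045 and 679 with at least 1 count. With limma they were 234 and 138 or 230 and 132 at pseudocounts of 0.1 and 1. The replicate block gave 909 and 703. Without replicate 1 of both groups (an alternative chosen after seeing the data) they were 1017 and 726. With 1 library left out they were 125 to 738 higher and 62 to 572 lower. Of the further pathway genes, 1 was called higher with effective length offsets and both limma fits, 8 with at least 1 count and without replicate 1 of both groups, and 1 to 7 with 1 library left out; 1 was lower with the block and without replicate 1 of both groups, and 0 to 1 with 1 library left out. Of the TCF targets, 6 were higher with DESeq2 and without replicate 1 of both groups, 4 with at least 1 count and with the block, 1 with effective length offsets and both limma fits, and 0 to 5 with 1 library left out; 2 were lower with at least 1 count and without replicate 1 of both groups, and 0 in both limma fits. The cause was not tested; a fit without 1 library has fewer samples.

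Replicate numbers were not shown to pair the samples: the deviations of same-numbered cultures correlated at 0.318, 0.035 and 0.177, and not every culture correlated best with its own number. Differently numbered cultures correlated at -0.015, -0.314, -0.223, 0.196, -0.156 and -0.017. With the block, all 5 member calls remained and DKK1, DKK3 and WLS were added.

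Among members not called, log2 FC changed sign in some fits. WNT2B was -0.01 with effective length offsets and -0.02 in both limma fits. WNT7B was 0.02 with effective length offsets, and -0.15 to 0.02 without 1 library (0.00 among them). FZD2 was -0.10 to 0.01 without 1 library. FZD3 was -0.87 with effective length offsets, -0.67 and -0.33 in the limma fits, and -0.06 to 0.20 without 1 library. FZD4 was -0.17 to 0.06 without 1 library and 0.11 without replicate 1 of both groups. FZD5 was -0.07 to 0.17 without 1 library. FZD6, at 0.00 in the report, was 0.00 with DESeq2 and RLE size factors, 0.01 with at least 10 counts, 0.03 in the limma fits, 0.06 with effective length offsets and without replicate 1 of both groups, and -0.07 to 0.04 without 1 library. LRP5 was -0.02 to 0.05, ROR1 -0.03 to 0.14, and GSK3B -0.10 to 0.03 without 1 library, and GSK3B was 0.07 without replicate 1 of both groups. NKD2 was 0.13 with effective length offsets, 0.02 and 0.04 in the limma fits, and -0.65 to 0.26 without 1 library. APC was -0.10 to 0.12 without 1 library and 0.11 without replicate 1 of both groups. TCF7L1 was -0.01 in the limma fits, and -0.08 to 0.08 without 1 library.

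Some members had under 100 counts per library, and how far depth limits their calls was not measured. In the simulated data most changes of 0.5 on the log2 scale were missed. Those changes were drawn over all tested genes and recovery was not split by count, so this does not measure the limit of depth.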

Other observations

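Genes that relay WNT5A signals through calcium and small GTPases were looked up after the members' results had been seen. Of 21 such genes 19 were tested, 2 were higher in ACM and 1 was lower (15.8% called, against 5.56% of all genes), with a median log2 FC of -0.06. At an unadjusted p at or below 0.05 there were 8 (42.1%, against 23.3%), and in 9 the groups did not overlap (47.4%, against 29.0%). NFATC1 and NFATC4, transcription factors that calcineurin activates, rose by 0.80 (SE 0.18, adjusted p = 0.0339) and 0.49 (SE 0.11, adjusted p = 0.0333). NFATC1 read 8.6, 10.5 and 7.94 CPM in ACM and 4.88, 4.52 and 6.18 CPM in UCM, and NFATC4 98.7, 92.8 and 72.2 CPM against 64.5, 63.2 and 60.6 CPM. NFATC2, of the same family, was at 2.19, 1.86 and 2.17 CPM against 3.08, 4.89 and 4.37 CPM, on 33 to 91 counts, with a log2 FC of -0.98 (SE 0.25) and an adjusted p of 0.0502 just outside the threshold. CDC42, a small GTPase of cell polarity, fell by 0.32 (SE 0.07, adjusted p = 0.0334), from 96.8, 107 and 93.2 CPM in UCM to 76.1, 80.3 and 80.7 CPM in ACM; none of its counts were whole, so reads were shared with other loci. The next genes by p were CAMK2D, a calcium-dependent kinase (log2 FC 0.30, adjusted p = 0.0632), PLCB4, a phospholipase (-0.42, adjusted p = 0.0712), MAPK9, a JNK kinase (-0.19, adjusted p = 0.1297), and PRKCA, a protein kinase C (0.20, adjusted p = 0.1392). In all 4 the CPM of the groups did not overlap, and CAMK2D passed in 6 and PLCB4 in 5 of 15 alternatives. The calls of NFATC1, NFATC4 and CDC42 held in 7, 8 and 7 of 15 alternatives, with adjusted p up to 0.1662, 0.1343 and 0.1694. All 3 calls were lost without ACM replicate 1 or 2 or UCM replicate 2 or 3, and those of NFATC1 and CDC42 also without ACM replicate 3 (adjusted p = 0.0531 and 0.0697).

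Heparan sulfate proteoglycans hold WNT ligands at the cell surface, and sulfatases trim their chains. Of 12 such genes 10 were tested, and edgeR called 0, with 3 at an unadjusted p at or below 0.05 (30%, against 23.3% of all genes): SDC1 (log2 FC 0.24, adjusted p = 0.1218), SDC2 (-0.44, adjusted p = 0.0946) and SULF2 (-0.49, adjusted p = 0.2102). Over the alternatives SDC1 passed in 2, SDC2 in 3 and SULF2 in 3 of 15. The 4 tested glypicans had log2 FC of 0.04 to 0.11.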
